A study of Mus musculus with 6 samples.

Results

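Of 11837 genomic regions that were called as accessible in all 6 libraries of an ATAC-seq experiment on mouse dentate gyrus, 847 ranked higher in every cFos library than in every EYFP library. They were chosen by their ranks, as follows. The 6 peak lists were merged into 70575 regions on chromosomes 1 to 19 and X, the 11837 regions shared by all lists were kept, and these were ranked within each library by the highest peak score in the region. A region was taken when the lowest of its 3 cFos ranks lay above the highest of its 3 EYFP ranks. Ranks are given here as percentiles of the 11837 shared regions of a library, with 100 for the highest score, and the gap of a region is its lowest cFos percentile minus its highest EYFP percentile.

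The libraries came from adult mice of 8 weeks whose dentate gyrus had been infected with an adeno-associated virus (AAV) and then microdissected, 1 library per animal. In 3 animals the virus expressed cFos and in 3 it expressed the fluorescent protein EYFP as a control, so both groups carried a virus. The strain label read C57BL/6 for EYFP replicate 1 and ended in another number for each other library, and no source used here gives the viral promoter, the cells infected or the time after infection. Read depth is unknown, because the deposited lists hold peaks and scores only, and the cells of the dissected tissue were not checked against marker genes because no annotation of the lists' genome build (mm9) was used.

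In ATAC-seq the transposase Tn5 cuts DNA that is not covered by nucleosomes, so that promoters and enhancers in use give peaks of sequenced fragments. cFos is a member of the AP-1 family of transcription factors, which bind DNA as dimers of a Fos and a Jun protein. Neurons make it briefly after they fire, and AP-1 sites are common in enhancers that respond to activity. The granule cells, the principal neurons of the dentate gyrus, have low resting activity, and a virus can supply cFos in them without a stimulus.

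A region already accessible in control animals can differ between groups only in degree, and it is this difference that the ranks describe. The 847 regions were 7.16% of the shared regions. In the opposite direction, 743 regions, or 6.28%, had every EYFP rank above every cFos rank. The same rule was applied to the 18 other choices of 3 libraries out of the 6, each of which mixes the groups, and these gave between 465 and 668 regions, with a median of 546.5. Both counts that respect the groups thus exceeded all mixed ones, the cFos count being the higher of the pair. No test was made of these counts, because the ranks themselves chose the regions.

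The libraries ranked the shared regions in a similar order throughout. Spearman's correlation between the ranks of a pair of libraries was 0.809 to 0.852 among EYFP libraries, 0.745 to 0.808 among cFos libraries and 0.739 to 0.813 between groups. cFos replicate 2 took part in the lowest value of each kind in which it could. The scores were on different levels, the median over shared regions being highest in EYFP replicate 2, at 301.68, and lowest in cFos replicate 2, at 146.58, with the others between 167.85 and 220.77.

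Over the 847 regions the median percentile was 27.1, 26.3 and 27.0 in EYFP replicates 1 to 3 and 52.8, 58.7 and 54.2 in cFos replicates 1 to 3. The separation was small for most of them. The gap had a median of 3.87 percentile points, with quartiles of 1.38 and 9.95. It exceeded 10 points in 209 regions, 20 points in 44 and 30 points in 10. In the opposite direction 165 regions had a gap over 10 points, 38 over 20 and 7 over 30, and the widest was 38.4 points, against 59.5 toward cFos. All 6 libraries took part in setting the limits: the lowest cFos rank was that of replicate 1 in 335 regions, of replicate 2 in 212 and of replicate 3 in 300, and the highest EYFP rank was that of replicate 1, 2 or 3 in 280, 277 and 290 regions.

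The region with the widest gap lay at chr4:94667897-94668591 (mm9) and was 695 bp wide. Its percentiles were 4.03, 10.5 and 12.5 in EYFP replicates 1 to 3 and 72.0, 84.2 and 71.9 in cFos replicates 1 to 3. It therefore stood near the bottom of the shared regions in all control animals and in the upper part in all cFos animals. Its scores as deposited, 65.53, 141.48 and 99.51 against 252.77, 316.91 and 330.25, were apart as well. The lowest score in each list is 50, so the peak of EYFP replicate 1 was among the weaker calls. With only peaks scoring above 93.41, the region was no longer called in all libraries, and the same held for most of the 12 regions with the widest gaps. The nearest other shared region was 21229 bp away.

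The next region, chr11:112642500-112644508, was 2009 bp wide and isolated, with its nearest shared neighbour 418077 bp away. Its percentiles were 8.32, 3.20 and 4.98 in the EYFP libraries and 61.4, 68.1 and 78.3 in the cFos libraries. The scores, from 73.45 to 95.14 and from 205.16 to 377.36, did not overlap. These 2 regions were the only ones of either direction with a gap over 40 points.

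Chromosome 3 held 3 of the 12 regions with the widest gaps. At chr3:63745077-63746043 the percentiles were 11.1, 16.8 and 8.64 in EYFP and 64.5, 55.2 and 69.2 in cFos libraries. At chr3:65796303-65797411 they were 8.07, 4.13 and 7.82 against 51.7, 55.8 and 45.0. At chr3:128123905-128124950 they were 11.3, 38.4 and 8.14 against 68.1, 77.6 and 75.7, so that EYFP replicate 2 stood well above the other controls. In the first and the last of these the scores as deposited overlapped although the ranks did not. In the first, EYFP replicate 2 scored 170.01 and cFos replicate 2 scored 161.74. In the last, EYFP replicate 2 scored 252.69 and cFos replicate 1 scored 233.26.

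Chromosome 14 held a pair of the 12 regions. The first, chr14:124158969-124159836, had percentiles of 21.7, 15.6 and 9.12 in EYFP and 64.1, 61.5 and 63.5 in cFos libraries, the 3 cFos values lying close together. The second, chr14:100860044-100861488, had 19.6, 37.7 and 25.8 against 70.2, 72.8 and 77.7 and lay 822 bp from another shared region. Its scores overlapped, with 250.47 in EYFP replicate 2 and 234.41 in cFos replicate 2.

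A pair of regions on chromosome 18 lay only 31 bp apart and both had the groups apart. The wider, chr18:67235163-67236121, was among the 12, with percentiles of 41.3, 39.1 and 18.1 in EYFP and 87.1, 75.4 and 73.4 in cFos libraries. Its neighbour, chr18:67234397-67235131, had 0.287, 1.03 and 2.15 against 18.0, 19.6 and 15.7, and thus ranked low in every library. No other pair of members lay so close together. Another region of that chromosome, chr18:10850716-10851405, was near the bottom in the EYFP libraries, at 3.72, 0.228 and 9.15, and spread widely in the cFos libraries, at 41.6, 52.3 and 68.7.

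The remaining 3 of the 12 lay on chromosomes 10, X and 15. In chr10:16309060-16309776 the percentiles were 27.1, 4.33 and 2.24 in EYFP and 62.5, 75.9 and 69.0 in cFos libraries. In chrX:36786871-36787612, which had no shared region within 797953 bp, they were 0.815, 27.6 and 17.5 against 60.7, 72.4 and 58.1. In chr15:19426310-19426897, the narrowest of the 12 at 588 bp, they were 5.08, 5.10 and 6.83 against 34.3, 61.1 and 34.9. In each of these 3 regions the cFos libraries spread over more than 10 percentile points.

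**Figure D1:**
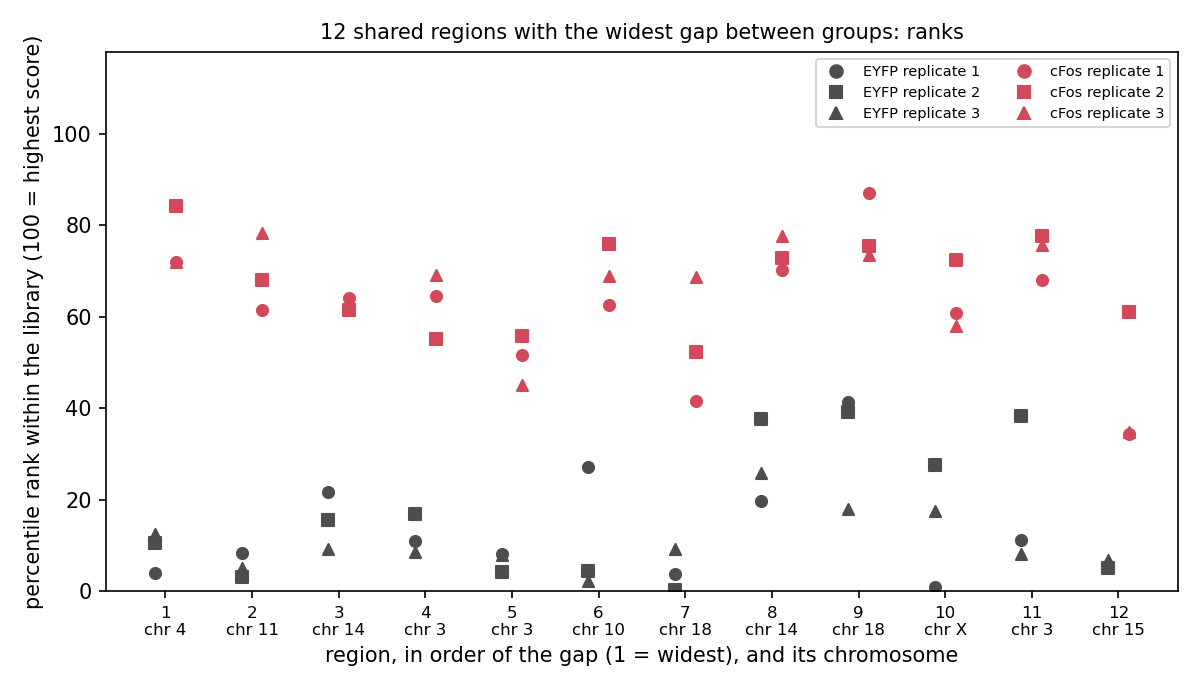
Percentile rank within each library (vertical axis, 100 = highest score) of the 12 shared regions with the widest gap, in order of the gap along the horizontal axis, with 1 point per library. The widest gap, 59.5 points, is that of the chromosome 4 region, and the cFos points lie above the EYFP points in every region, as the choice of regions requires.

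**Figure D2:**
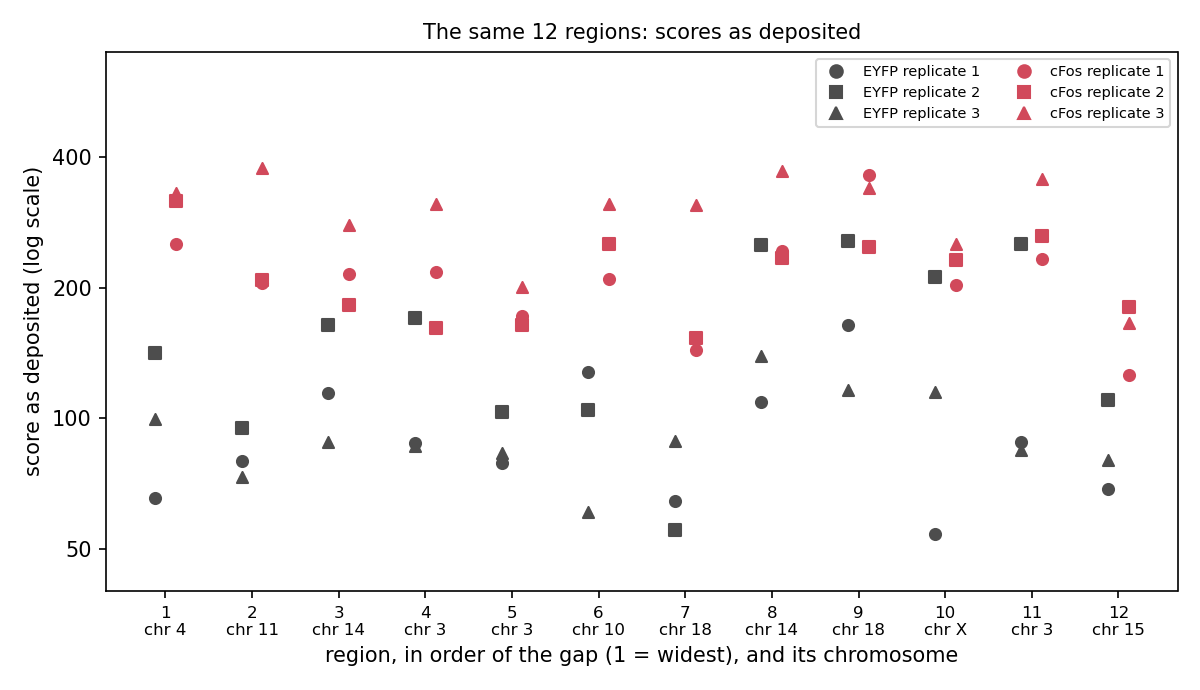
Deposited score (vertical log axis) of the same 12 regions in the same order, with 1 point per library. EYFP replicate 2, with the highest median score of the 6 libraries, overlaps the cFos points in regions 4, 8, 9, 10 and 11.

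On the scores as deposited, most of the 847 regions did not separate the groups. Every cFos score lay above every EYFP score in 87 of them, or 10.3%. Over all shared regions this held for 101, or 0.853%, and the reverse held for 1788, or 15.1%. EYFP replicate 2, which had the highest median score, was then set aside. In 344 of the 847 (40.6%) all cFos scores lay above those of both other EYFP libraries. Over all shared regions this held for 505 (4.27%). The median score over the 847 regions was 127.72, 207.26 and 142.70 in EYFP replicates 1 to 3 and 175.54, 172.66 and 237.42 in cFos replicates 1 to 3. All 3 cFos medians lay above those of EYFP replicates 1 and 3, and EYFP replicate 2 lay above cFos replicates 1 and 2. For most of the 847 the groups were therefore apart in rank within the library but not in the deposited score.

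The peaks of these regions were closer in width between groups than those of shared regions in general. Summed per region, the called bases of a library had medians of 722, 893 and 757 bp in EYFP and 676, 660 and 749 bp in cFos replicates 1 to 3. Over all shared regions the medians were 823, 994 and 855 bp against 659, 630 and 725 bp. Among the 847 the EYFP medians were lower than over all shared regions and the cFos medians slightly higher. Width and score come from the same peaks, so this was not tested.

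The direction was also read in libraries whose ranks had no part in a choice. These libraries were not fully independent of it, because all 6 libraries set which regions were shared. Regions were chosen on 2 cFos and 2 EYFP libraries, and the 1 cFos and 1 EYFP library left out were then compared, in all 9 ways of leaving out such a pair. Between 2125 and 2305 regions were chosen each time. The cFos library left out ranked the region above the EYFP library left out in 54.7% to 61.5% of them, with a median of 57.6%. Over all shared regions the same share ran from 49.0% to 50.9%. The difference in the pair left out had a median of 1.34 to 3.58 percentile points, all in favour of cFos. Regions chosen in the opposite direction ranked higher in the EYFP library left out in 51.8% to 58.4%. The direction was thus not kept in the pair left out for a large part of the regions chosen on 4 libraries. Every chosen set also contained all 847 regions, for which the direction holds in any pair by the rule. Choices that mix the groups were not read in this way. The 9 comparisons share libraries, so they are given as a range with no p-value.

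The 847 regions tended toward the lower ranks. Their mean percentile over the 6 libraries had a median of 39.9, against 46.8 for all shared regions and 46.4 for the 743 regions ranked higher in EYFP. They made up 8.69% of the 1680 shared regions with a mean percentile up to 20 and 5.51% of the 2196 between 60 and 80. In the opposite direction these shares were 5.65% and 6.19%. In the top band, above 80, the shares were 6.11% and 6.26%, and the gaps there were small, with a median of 1.04 points, against 3.865 points in the band up to 20 and 8.11 points between 20 and 40.

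The highest-ranked of the 847 had such small gaps. At chr2:69193324-69193915 the percentiles ran from 99.8 to 99.9 in all 6 libraries with a gap of 0.00845 points, and the scores were 1173.93, 1500.12 and 1382.23 in EYFP and 1572.63, 1627.18 and 1594.58 in cFos libraries. The scores of this region were apart in the direction of the ranks. At chr1:152238930-152241159, the second, the gap was 0.0760 points and the scores overlapped, from 1013.32 to 1303.73 against 1059.00 to 1218.15. The next 3, at chr18:21159288-21161754, chr2:84554402-84556721 and chr10:33738528-33740091, had gaps of 0.0253, 0.169 and 0.0507 points, all at percentiles above 98. The smallest of these gaps is a single place in the order of the shared regions.

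Membership at the threshold was equally fine. The 3 regions just inside, at chr1:79577644-79578431, chr4:80967905-80968943 and chr4:70070632-70072181, had gaps of 0.00422, 0.00845 and 0.00845 points. In the first the highest EYFP percentile was 19.8952 and the lowest cFos percentile 19.8995, although the other cFos libraries stood at 50.5 and 40.7. The 3 just outside, at chr12:3109782-3110262, chr1:24618140-24623276 and chr12:98299330-98300264, stood at percentile 99.96 or above in every library with gaps of 0, -0.00422 and -0.00422, the last pair because all 6 libraries gave them the top score of 3100.

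Both narrow and wide regions were frequent among the 847. The merged width had a median of 1059 bp, against 1128 bp for all shared regions and 1141 bp for the regions ranked higher in EYFP, while its 10th and 90th percentiles were 625.6 and 2158.2 bp, against 695 and 1947.4 bp for all. With only peaks scoring above 93.41, the median of the pooled lists, the order of the medians turned, to 1334 bp for the members and 1293 bp for all shared regions. The 847 supplied 14 of the 67 shared regions of at most 500 bp and 133 of the 1181 between 500 and 700 bp, or 20.9% and 11.3%. They were 5.89% of those between 1000 and 1500 bp, and 13.5% of the 170 above 3000 bp. In the opposite direction the shares were 1.49% and 4.57% in the narrow classes, 7.13% in the middle and 1.76% above 3000 bp. Merged width comes from the same peaks whose scores chose the regions, and EYFP peaks were the wider over all shared regions. The shares by width are therefore not independent of the choice, and what sets them was not tested. Width followed rank more steeply than in the other sets, with a median of 717.5 bp in the band up to 20 and 1822.5 bp above 80, where all shared regions had 756.5 and 1581 bp.

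Regions of 2 kb or more made up 12.04% of the 847 (102 regions), 8.95% of all shared regions (1060) and 6.33% of the 743 (47). Without EYFP replicate 2, whose peaks were the widest, these shares were 7.64%, 5.88% and 4.29%. The widest, chrX:120124204-120130394, spanned 6191 bp, with percentiles from 5.18 to 9.23 in EYFP and from 19.99 to 43.16 in cFos libraries, and so was a wide region of low rank. The second widest, chr14:84842172-84847316, had 40.4, 41.7 and 68.5 against 77.3, 71.7 and 80.3. The narrowest, chr14:91310751-91311146, covered 396 bp and stood at 54.7, 12.6 and 51.4 against 77.0, 76.0 and 67.2. These 3 were named after their values were seen. A single peak per library was called in 93.0% of the 847 and in 89.6% of all shared regions.

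**Figure D3:**
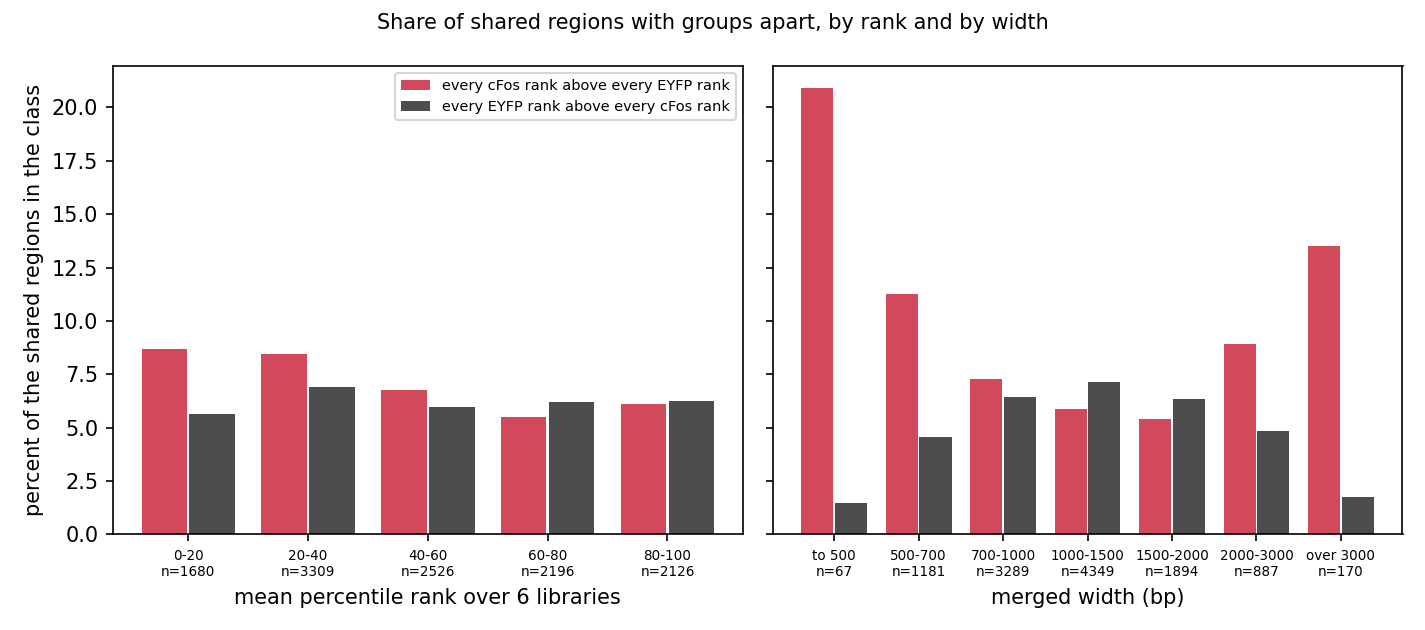
Percent of the shared regions in each class (vertical axis, from 0) that had every cFos rank above every EYFP rank (red) or the reverse (grey), by mean percentile rank over 6 libraries (left) and by merged width in bp (right); n is the number of shared regions in the class. The red bars are highest at both ends of the width axis, 20.9% at 500 bp or less and 13.5% above 3000 bp, where the grey bars are at 1.49% and 1.76%. Width and rank come from the same peaks, so the shares by width are not independent of the choice.

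Shared regions that lie close to one another were frequent among the 847. Another shared region lay within 5 kb of 72 of them, or 8.50%, against 458 of all 11837 (3.87%) and 13 of the 743 (1.75%). A part of the 72 came from a stretch of chromosome 13, between positions 21261000 and 23844703. Members there had a shared neighbour at distances such as 65, 433 and 838 bp. Shares without this stretch were not taken. With each library left out in turn the share among the regions then chosen was 6.58% to 8.31%, that among all shared regions 3.95% to 4.88%, and that in the opposite direction 1.73% to 3.27%. Read the other way, 15.7% of the 458 closely spaced regions belonged to the 847, and between 6.67% and 7.13% of the regions in the 3 wider classes of spacing. The spacing of regions did not enter the choice, but it was examined with the ranks known.

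The closely spaced regions leaned toward cFos as a class. Over all 458 the median percentile was 37.7, 31.9 and 35.3 in EYFP replicates 1 to 3 and 43.5, 44.7 and 40.1 in cFos replicates 1 to 3, with no overlap. These medians include the 72 members and the 13 regions of the opposite set, which were chosen on the same ranks. Medians without them were not taken. In the classes from 5 to 20 kb and from 20 to 100 kb every library lay within 2.36 points of every other, and from 100 kb upward within 3.27 points. The mean percentile of the neighbour was higher in cFos than in EYFP libraries for 48 of the 72 members with a close neighbour, or 66.7%. The same held for 312 of all 458 closely spaced regions, or 68.1%, and for 10 of the 13 in the opposite set, so the members were not distinct in this. The neighbour of one of the 72 was itself a member in 7 cases and belonged to the opposite set in 4. Of all 458 closely spaced regions, 72 (15.7%) were members and 13 (2.84%) belonged to the opposite set. The nearest shared neighbour of a member, at any distance, was a member in 7.20% of cases, close to the 7.16% of all shared regions. This share reads only the nearest neighbour, so it cannot exclude runs of members with other shared regions among them. On chromosome 13 a series of members did lie close together, between positions 21261000 and 22136757.

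**Figure D4:**
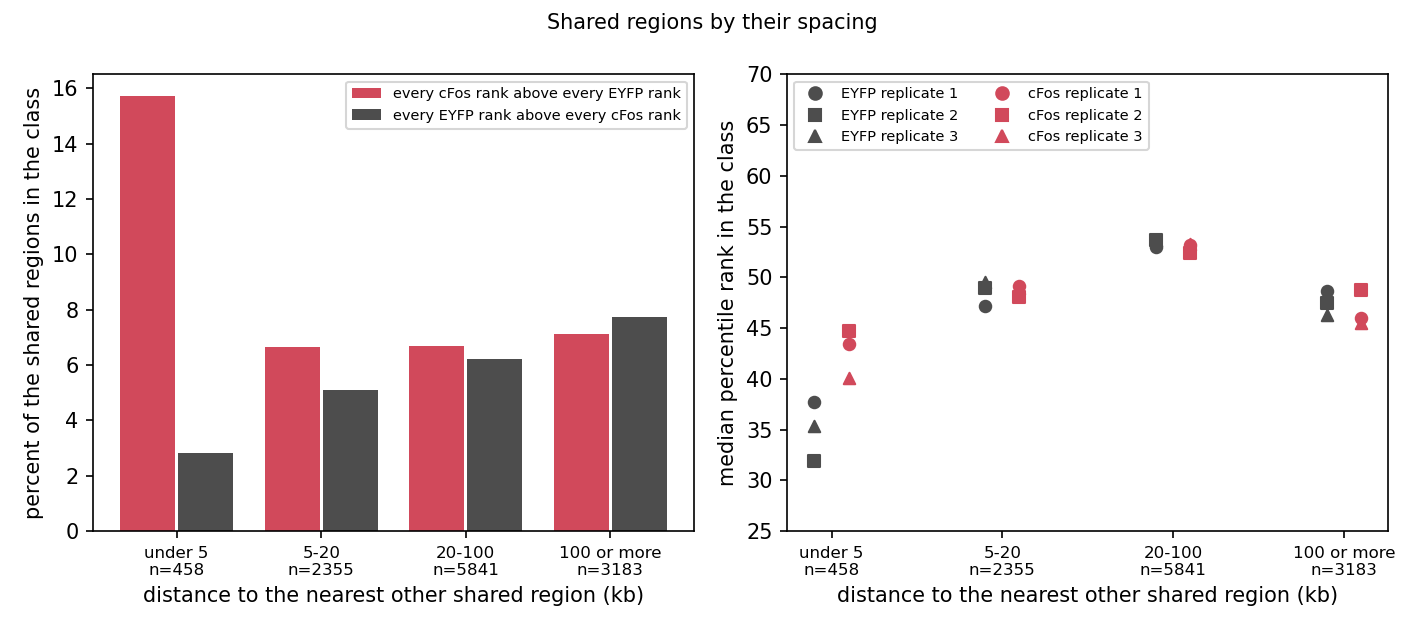
Shared regions by distance to the nearest other shared region (horizontal axis, kb; n regions per class). Left, percent with every cFos rank above every EYFP rank (red) or the reverse (grey); right, median percentile rank of all regions of the class in each library. Under 5 kb the red share is 15.7% and the cFos medians, 40.1 to 44.7, lie above the EYFP medians, 31.9 to 37.7.

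Sites called only in one group were rare beside the 847. Of the 317 regions with calls in the 3 cFos libraries and in none of the EYFP libraries, few lay near shared regions of any kind: 4 of the 847 (0.472%) had one within 10 kb, as did 26 of all shared regions (0.220%). One of the 1390 regions with calls in the 3 EYFP libraries and in none of the cFos libraries lay within 10 kb of 7 of the 847 (0.826%) and of 103 of all shared regions (0.870%). Among the former 4 was chr12:86826619-86827471, named after its values were seen because the neighbouring cFos-only sites had been singled out earlier. It lay 9016 bp from the nearest of them. Its percentiles were 50.4, 16.2 and 45.1 in EYFP and 71.0, 62.9 and 52.7 in cFos libraries, a gap of 2.31 points, and its scores overlapped, from 167.01 to 199.78 against 187.15 to 247.75.

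The 847 regions were spread unevenly over the chromosomes. They made up 9.92% of the shared regions of chromosome 3 (83 of 837), 9.81% on chromosome 13 (67 of 683) and 8.66% on chromosome 10 (67 of 774). The members on chromosome 13 include those of the stretch named above. The lowest shares were 2.95% on chromosome 17 (11 of 373), 3.19% on chromosome 19 (8 of 251) and 3.23% on chromosome 7 (15 of 465). In the opposite direction the shares ran over a similar range but on other chromosomes, from 3.33% on chromosome 16 to 9.88% on chromosome 15, with 6.21% on chromosome 3 and 8.04% on chromosome 17.

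Chromosomes with many genes for their number of shared regions held fewer of the 847. The GRCm38.p6 gene table lists 2030 protein-coding genes on chromosome 7, or 4.37 per shared region, and 983 on chromosome 3, or 1.17 per shared region. Across the 20 chromosomes Spearman's rho between genes per shared region and the share of the 847 was -0.85, and -0.40 for the opposite direction. These values describe 20 chromosomes read in the same 6 libraries and carry no test. They also move with 1 library. The median percentile of shared regions on chromosome 19 was 41.2 in cFos replicate 2 and 47.6 to 54.9 in the other libraries. On chromosome 7 it was 42.4 against 45.6 to 52.7. Without cFos replicate 2, rho was -0.38 and chromosomes 7, 17 and 19 together held 10.4% members where chromosomes 3 and 13 held 14.3%. With any other library left out rho was between -0.76 and -0.62. For the opposite direction rho had no stable sign, from -0.34 to 0.28 with 1 library left out, the highest without EYFP replicate 1 and the next, 0.18, without cFos replicate 1.

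**Figure D5:**
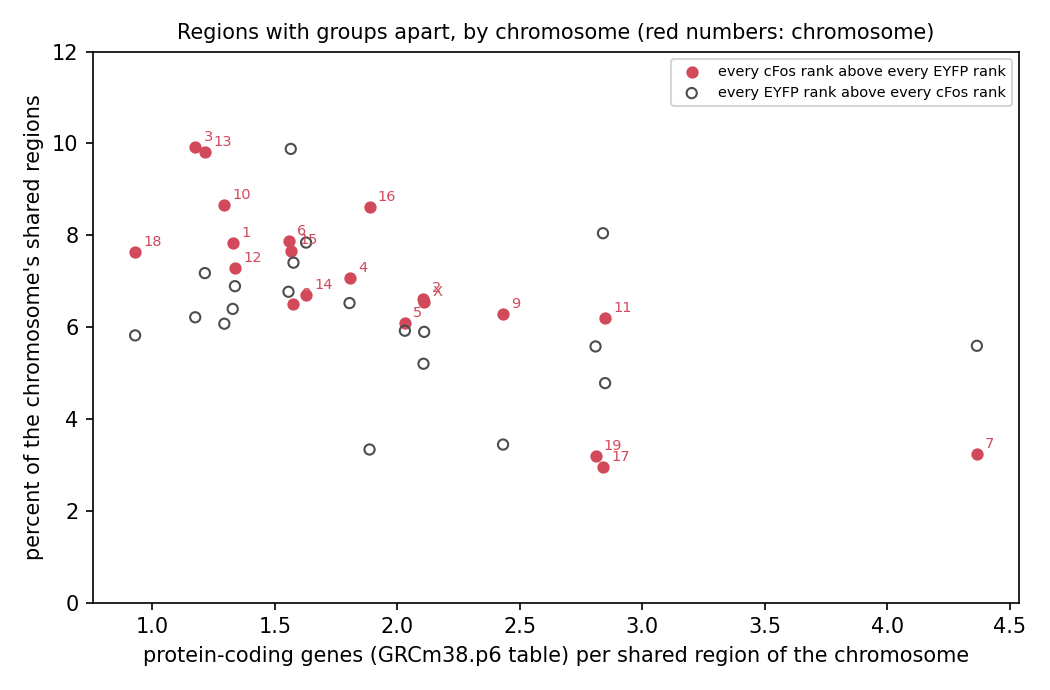
Percent of the shared regions of each chromosome (vertical axis, from 0) that had every cFos rank above every EYFP rank (red, numbered by chromosome) or the reverse (open circles), against protein-coding genes of the GRCm38.p6 table per shared region. Chromosomes 17, 19 and 7 lie lowest in red, at 2.95%, 3.19% and 3.23%, and chromosome 3 highest, at 9.92%.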

How the data were processed

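Each library was deposited as a headerless list of peaks with a score in the fifth column. The submitters' processing notes name Bowtie2 and the genome build mm9, and peak names begin with MACS; the caller's version, its threshold and the meaning of the score are not stated in the sources used here. The authors' deposited score runs from 50 to 3100, is not normalized between libraries, and was used here within a library, as a rank, except where scores are named. The lists hold 24040 to 44321 peaks; depth is unknown and sets no interval.

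Groups and replicate numbers come from the titles, 3 animals each. Touching or overlapping peaks were merged, and an overlap of 1 bp counted as a call. Coordinates are 1-based, mm9. The regions named are the 12 with the widest gap, the 5 with the highest mean rank and 3 on each side of the threshold. The members, lists and rules were chosen with earlier results of these data known. No p-value is given, since the ranks chose the members and regions are not replicates. The gene table at hand is on GRCm38.p6, and 163 chromosome 1 peaks start beyond its last chromosome 1 gene; it was used only to count genes per chromosome. Gene distances, gene lists, cell type markers, base composition, motifs and sequences, which were planned, were not analysed here. The ranking rule was run on simulated scores with equal, independent noise in each library. This was a check of the code, and no count here rests on it. Python 3.11.15, numpy 2.4.6, pandas 2.3.3 and matplotlib 3.10.9 were used.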

Additional observations from a re-analysis of the deposited data

Results flagged for a closer look

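Chromosome Y lies outside the comparisons and drew attention because some of its regions separated the groups. When every sequence name was kept, 16 chromosome Y regions were called in all 6 libraries, and 4 of them had every cFos rank above every EYFP rank, against 2 in the opposite direction. Over all 11853 shared regions of this setting the counts were 847 (7.15%) and 749. The 16 regions are too few for a lean to be read from them. The widest gap on chromosome Y was 22.1 percentile points, at chrY:1487018-1487662, with percentiles of 7.04, 13.2 and 12.4 in EYFP replicates 1 to 3 and 41.8, 52.9 and 35.3 in cFos replicates 1 to 3. The other 3, at chrY:1751668-1752295, chrY:2604121-2604872 and chrY:2779531-2786391, had gaps of 11.8, 15.5 and 3.13 points. In these 3 the deposited scores were apart in the same direction, for example 301.03, 263.46 and 248.15 against 748.01, 357.05 and 382.49 in the last, while in the first they overlapped, with 154.03 in EYFP replicate 2 and 144.48 in cFos replicate 1.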

How the results depend on the processing

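The count of 847 was 725 of 10520 shared regions on lists cut to the shortest length, against 648 toward EYFP. It was 845 when peaks were merged across 200 bp and 844 with a base-weighted mean score, against 745 toward EYFP in both. With every sequence name it was 847 against 749, and 843 of the main members were kept. It was 463 of 7126 shared regions with the stricter score (above 93.41), against 420 toward EYFP. When a library had to cover 50% of the region it was 395 of 6093, against 388. On the scores as deposited it was 101, against 1788. With 1 library left out, when fewer libraries have to be apart, it was 1349 to 1754, against 1234 to 1650 toward EYFP. With the replicate number as a block (each cFos rank above the EYFP rank of the same number) it was 1710, against 1690 toward EYFP; same-numbered libraries did not deviate together (correlations of -0.0450, -0.0276 and 0.0373), and 0 of 6 libraries correlated best with their own number. The share that kept its direction in the pair left out, 57.6% in the median, was 54.0% with the stricter score and 54.9% with 50% coverage. With the stricter score the median width of the members was 1334 bp, above the 1293 bp of all shared regions where the main value lay below; 98.7% had 1 peak in every library (97.1% of all), and the median of their mean percentile was 43.5 (47.5 for all). The cause was not tested. The 12 regions with the widest gaps kept a gap above 0 in all 114 values computed for them. Values with 1 library left out say little here, because the remaining libraries of these regions were already apart. In 18 further cases the region was not called in all libraries, most often with the stricter score. Under that setting only chr14:100860044-100861488 and chr18:67235163-67236121 of the 12 were still shared, with gaps of 37.7 and 39.3 points. Over all 198 values of the named members, 9 fell below 0, all of them at chr1:79577644-79578431 (to -3.65 with the stricter score) and chr4:80967905-80968943 (to -0.83 without EYFP replicate 3), which lie just inside the threshold. The shares of wide and closely spaced regions and the relation to genes with libraries left out were added after seeing the data.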
